A study of Mus musculus with 6 samples.

Results

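A set of 7 genes of epithelial cell adhesion was followed across 4 RNA-seq libraries of mouse dental epithelial organoids (DEOs): the classical cadherins Cdh1, Cdh2 and Cdh3, the catenins Ctnnb1, Ctnna1 and Ctnnd1, and Epcam. They were chosen by gene symbol and are 7 of the 47360 symbols in the table of expression values. DEOs were grown from adult dental epithelial stem cells (aDESCs) of the apical buds of the incisor, the growing end of a tooth that keeps renewing its epithelium. The cells came from 9-week-old female wild-type C57BL/6J mice, were embedded in Matrigel and were cultured for 14 days. All 4 media held Wnt3a, R-spondin1 and Egf (100 µg per ml), together with the Bmp antagonist Noggin (200 µg per ml), and this base is called +N. +ND also held dibenzazepine (DBZ), which blocks the protease that activates Notch receptors, at 10 µM per the sample labels. The methods text gives the dose in millimoles per litre, and the files do not settle which unit was used. Fgf10 was added at 100 µg per ml in +NF, and +NFD held both. Wnt activation was therefore common to every library, controls included, and no library without Noggin was compared. Each medium had 1 library, so no difference between media has a replicate check, and neither a p-value nor a standard deviation could be given. How many mice or wells stand behind a library is not given in the sources used here. The media with Jagged1 (+NJ and +NFJ) were not analysed here.

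Classical cadherins are transmembrane proteins that bind cadherins on the neighbouring cell through their extracellular domains in a calcium-dependent way. Inside the cell, p120-catenin (Ctnnd1) binds near the membrane and holds the cadherin at the surface, β-catenin (Ctnnb1) binds the end of the tail, and α-catenin (Ctnna1) links β-catenin to actin. β-catenin also carries the canonical Wnt signal to the nucleus, and Epcam is an epithelial membrane glycoprotein that binds Cldn7 and is cleaved by regulated proteolysis. In stratified epithelia P-cadherin (Cdh3) is known from the basal layer and from hair and tooth buds, E-cadherin (Cdh1) from all living layers, and N-cadherin (Cdh2) mainly from mesenchymal, neural and muscle cells. RNA levels in whole organoids do not tell fewer cells of a type from less RNA per cell, and protein was not measured in these files.

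Values are FPKM, fragment numbers divided by the length of the transcript and the size of the library, so levels of different genes can be set side by side per length. Differences between media are given as log2((FPKM + 1)/(FPKM + 1)), a scale on which changes of low genes come out too small, and were counted where the gene reached an FPKM of 1 in the higher of the 2 libraries. A gene past 2-fold in either direction is called here. From the steps between low values, the depth relative to +N was 0.809 in +ND, 1.06 in +NF and 1.06 in +NFD. Between 12529 and 12959 genes reached an FPKM of 1 in a library. The epithelial keratins Krt5 and Krt14 were between 4984 and 12652 FPKM in every library. Of the 10 epithelial markers, which include these, 6 were at least 2-fold lower and 0 higher in +ND against +N. Of all genes, 5.29% were lower and 5.88% higher there. Krt8 was at 22.8 FPKM in +N and 86.0 in +NF, and at 0.574 in +ND and 5.95 in +NFD. Krt18 was at 76.7 and 241 FPKM in +N and +NF, and at 9.90 and 63.2 in +ND and +NFD. Of 7 endothelial markers 6 stayed at or below 0.201 FPKM, the exception being Egfl7, and the 5 melanocyte markers summed to between 0.253 and 0.941 FPKM. The 8 markers of macrophages and other leukocytes summed to between 164 and 216 FPKM, and the 10 mesenchymal markers were present in every library and are given beside Cdh2.

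Of the 7 genes, 6 were well expressed in every library and 1, Cdh2, was below an FPKM of 1 in 3 libraries and above it in +NFD. Ctnnb1 was the highest in each library and reached 336 FPKM in +N, and Cdh2 was the lowest in each at 0.134 to 1.93 FPKM. The levels separated into genes that hardly varied between media (Cdh3, Ctnnb1, Ctnna1 and Ctnnd1, with a highest level between 1.26 and 1.52 times the lowest) and genes that varied more (Cdh1 by 2.40 times, Epcam by 3.98 times and Cdh2 by 14.4 times). Cdh1, Ctnnb1, Ctnna1 and Epcam were lowest in +ND, Ctnnd1 was lowest in +NFD, Cdh3 was lowest in +NF and Cdh2 was lowest in +N.

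**Figure D1:**
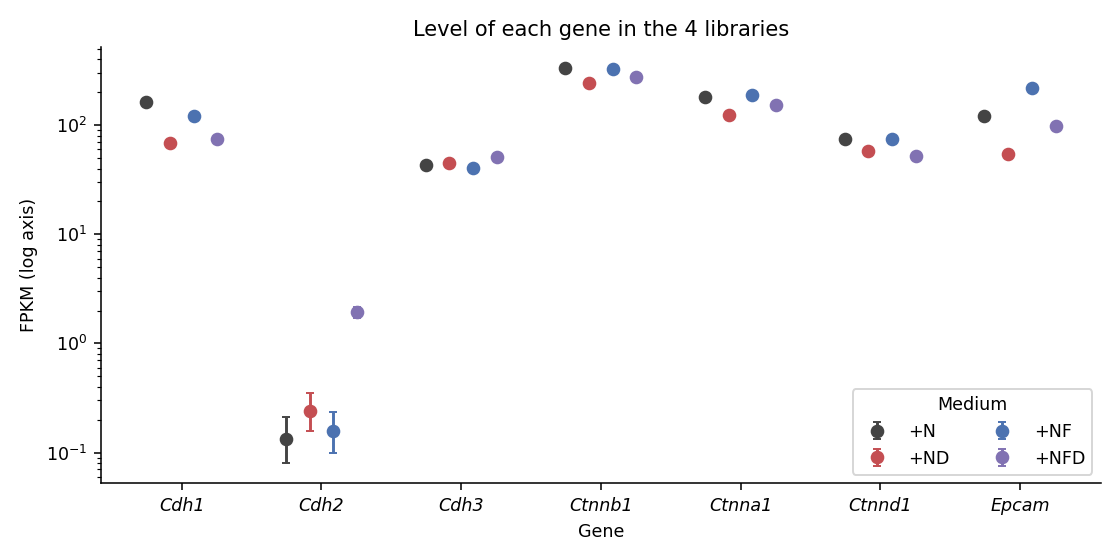
FPKM of the 7 genes (log axis) in +N, +ND, +NF and +NFD, 1 point per library, with bars for the 95% counting interval only. The Cdh1 points spread between 68.0 and 163 FPKM and the Epcam points between 54.8 and 218, the Cdh3 points lie together between 40.4 and 50.9, and the Cdh2 point of +NFD at 1.93 stands above the other 3 Cdh2 points.

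Cdh1 (ENSMUSG00000000303; GRCm38 chr8:106603351-106670246, plus strand) encodes E-cadherin, the main cadherin of epithelial cells. It was at 163 FPKM in +N and 120 in +NF, and at 68.0 in +ND and 74.7 in +NFD. Both libraries with DBZ were thus below both libraries without it. Against +N, the log2 ratio was -1.25 in +ND, which is 2.40 times lower in FPKM, -0.43 in +NF and -1.12 in +NFD. DBZ on the Fgf10 background (+NFD against +NF) gave -0.68, a smaller difference that did not reach 2-fold, and Fgf10 on the DBZ background (+NFD against +ND) gave 0.13. In rank among all symbols Cdh1 went from place 532 in +N to place 1445 in +ND.

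Cdh3 (ENSMUSG00000061048; GRCm38 chr8:106510913-106556908, plus strand) encodes P-cadherin and lies next to Cdh1, with 46442 bases between the 2 genes. It was at 43.0 FPKM in +N and 40.4 in +NF, and at 45.0 in +ND and 50.9 in +NFD. The order was therefore +NFD, +ND, +N and +NF from high to low, and the counting intervals of +ND (43.6 to 46.3 FPKM) and +N (41.9 to 44.2 FPKM) overlapped. Cdh3 was not called in any of the 5 comparisons, and its log2 ratios ran from -0.09 in +NF against +N, a ratio that changed sign under other scalings, to 0.33 in +NFD against +NF. Zfp90, the named gene before Cdh3, was between 4.88 and 5.77 FPKM, and Tango6, the next gene after Cdh1, was between 3.31 and 4.42 FPKM.

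The tails of the 2 cadherins bind the same catenins, and their coding ends, which encode the catenin-binding tail, are shown because reads could be shared where the 2 transcripts are alike. The last 120 coding bases before the stop codon of each transcript (GENCODE M21, GRCm38, plus strand, exon 16 of 16 in both) are given 5′ to 3′ with capitals where both genes hold the same base. They come from the transcripts of 4430 nt (Cdh1) and 4384 nt (Cdh3). For Cdh1 they lie at chr8:106668493-106668612 and for Cdh3 at chr8:106555328-106555447.
Cdh1: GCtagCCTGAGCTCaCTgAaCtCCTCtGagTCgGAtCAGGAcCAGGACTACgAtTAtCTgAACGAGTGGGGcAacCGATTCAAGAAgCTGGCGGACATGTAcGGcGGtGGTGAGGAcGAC
Cdh3: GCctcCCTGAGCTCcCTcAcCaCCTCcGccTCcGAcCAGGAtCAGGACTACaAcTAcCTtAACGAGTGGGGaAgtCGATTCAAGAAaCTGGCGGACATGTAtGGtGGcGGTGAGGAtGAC
The 2 stretches shared 95 of 120 bases (79.2%), in runs of at most 14 bases. Over the whole transcripts the longest identical run was 16 bases between Cdh1 and Cdh3, 26 bases between Cdh1 and Cdh2, and 23 bases between Cdh2 and Cdh3. The read length is not given in the sources used here.

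Since Cdh1 varied and Cdh3 hardly did, the balance of the 2 cadherins differed between media. The FPKM of Cdh1 was 3.79 times that of Cdh3 in +N and 2.98 times in +NF, against 1.51 times in +ND and 1.47 times in +NFD. The ratio was therefore about the same in both DBZ libraries, with and without Fgf10, and higher in both libraries without DBZ. This ratio is taken within a library and does not depend on how libraries are scaled. Of the summed Cdh1, Cdh2 and Cdh3 FPKM, which was 206 in +N and 161 in +NF, and 113 in +ND and 127 in +NFD, Cdh3 made up 20.9% in +N and 25.1% in +NF, and 39.7% in +ND and 39.9% in +NFD.

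Layer genes were compared beside this balance. Of 15 genes of the suprabasal layers, 10 were at least 2-fold higher and 3 lower in +ND against +N, where 5.88% of all genes were higher and 5.29% lower. On the same list 12 were higher and 0 lower in +NFD against +NF, and 10 were lower and 0 higher in +NF against +N. Krt1, Dsg1a, Dsc1 and Tgm3 were below an FPKM of 1 in +NF and passed the filter in +NFD against +NF through +NFD alone. Krt1 passed in +ND against +N through +ND alone, and Dsg1a, Dsc1 and Tgm3 in +NF against +N through +N alone. In +NFD, 6 were higher and 4 lower than in +N, and 11 were lower and 0 higher than in +ND. Cdsn, a protein of the cornified layer, was at 9.14 FPKM in +N and 2.20 in +NF, and at 247 in +ND and 93.4 in +NFD, and Krt10, a suprabasal keratin, was at 94.1 and 1.25 FPKM without DBZ (+N and +NF) and at 32.8 and 2.93 with it (+ND and +NFD). Of 12 basal layer genes, 1 was lower (Krt14) and 1 higher (Dst) in +ND against +N, and 2 were lower in +NFD against +NF, among them Lama3, a laminin chain of the basement membrane, with a log2 ratio of -1.19. In +NF against +N 1 was lower and 2 were higher, in +NFD against +N 4 were lower and 2 higher, and in +NFD against +ND 1 was higher. In these comparisons between 2.44% and 5.88% of all genes were called in a given direction, so a count of 1 basal gene is near the background. The basal keratin Krt14 had log2 ratios of -1.19 in +ND and -1.05 in +NFD against +N, and Itgb4, an integrin of hemidesmosomes, had 1.57 in +NFD. The part of these layer genes in the cadherin balance was not tested.

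**Figure D2:**
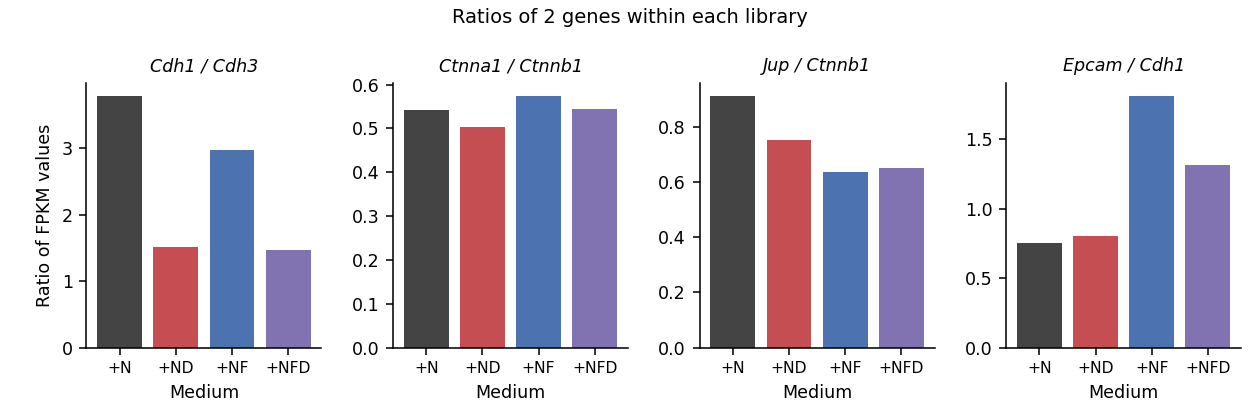
Ratio of the FPKM values of 2 genes within each library (bars from 0, 1 bar per medium, each panel with its own axis). Cdh1 to Cdh3 was 3.79 in +N and 2.98 in +NF against 1.51 in +ND and 1.47 in +NFD, while Ctnna1 to Ctnnb1 stayed between 0.504 and 0.575; Epcam to Cdh1 was highest in +NF at 1.82.

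Cdh2 (ENSMUSG00000024304; GRCm38 chr18:16588877-16809246, minus strand) encodes N-cadherin. It was at 0.134 FPKM in +N and 0.158 in +NF, and at 0.240 in +ND and 1.93 in +NFD. The values of +N, +NF and +ND had overlapping counting intervals (0.0794 to 0.212, 0.0993 to 0.237 and 0.157 to 0.351 FPKM), and the interval of +NFD, 1.71 to 2.18, lay above them. With the longest annotated transcript, 4843 nt, these values stand for about 18, 22.5, 26.2 and 277 fragments. Cdh2 passed the filter through +NFD alone, so it could be counted only in the 3 comparisons with that library. There its log2 ratio was 1.37 against +N, 1.34 against +NF and 1.24 against +ND, and without a pseudocount it was 14.4 times, 12.3 times and 8.06 times as high in FPKM. Even in +NFD it was 1.52% of the summed FPKM of the 3 cadherins.

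Mesenchymal markers stood with Cdh2 in +NFD. Of 10 such markers, 10 were higher in +NFD than in +N, 9 of them at least 2-fold, and 10 were also higher than in +NF and in +ND, 8 of them at least 2-fold in each. Among all genes that passed the filter, 69.1% were higher in +NFD than in +N, and 5.85% at least 2-fold. Against +NF these shares were 57.2% and 3.72%, and against +ND 59.0% and 3.39%. Thy1 passed the filter through +NFD alone against +N and +NF, as did Pdgfra against +N and Pdgfrb against +NF. The summed FPKM of the 10 markers was 272 in +N and 171 in +NF, and 251 in +ND and 657 in +NFD. Vim, an intermediate filament of mesenchymal cells, was at 16.3 FPKM in +N and 67.5 in +NFD, and Thy1, a fibroblast surface protein, was at 0.0769 and 11.1 FPKM. None of the 10 markers was at 0 in any library. Their part in the Cdh2 value was not tested.

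Among the 19 other cadherin genes of a list of classical and atypical cadherins, 3 passed the filter in each comparison and 0 were lower in any of them. In +ND and in +NFD against +N, 2 were at least 2-fold higher, Cdh11 and Cdh13, against 1 in +NF against +N (Cdh13), 1 in +NFD against +NF (Cdh11) and 0 in +NFD against +ND. Of all genes, between 2.76% and 5.88% were at least 2-fold higher in a comparison. Cdh11, the cadherin of osteoblasts and mesenchyme, was at 3.50 FPKM in +N and 3.64 in +NF, and at 10.1 in +ND and 21 in +NFD, with log2 ratios of 2.29 in +NFD against +N and 2.25 against +NF. Cdh13, a cadherin held by a lipid anchor and without a cytoplasmic tail, was at 21.6 and 60.1 FPKM without DBZ (+N and +NF) and at 49.4 and 73.6 with it (+ND and +NFD), and so was lowest in +N and at least 2-fold higher in each of the other media. In +NFD its level was close to that of Cdh1, 74.7 FPKM. Cdh24, the third gene that passed, was between 1.27 and 2.59 FPKM, and Cdh5, the endothelial cadherin, was at or below 0.201 FPKM.

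**Figure D3:**
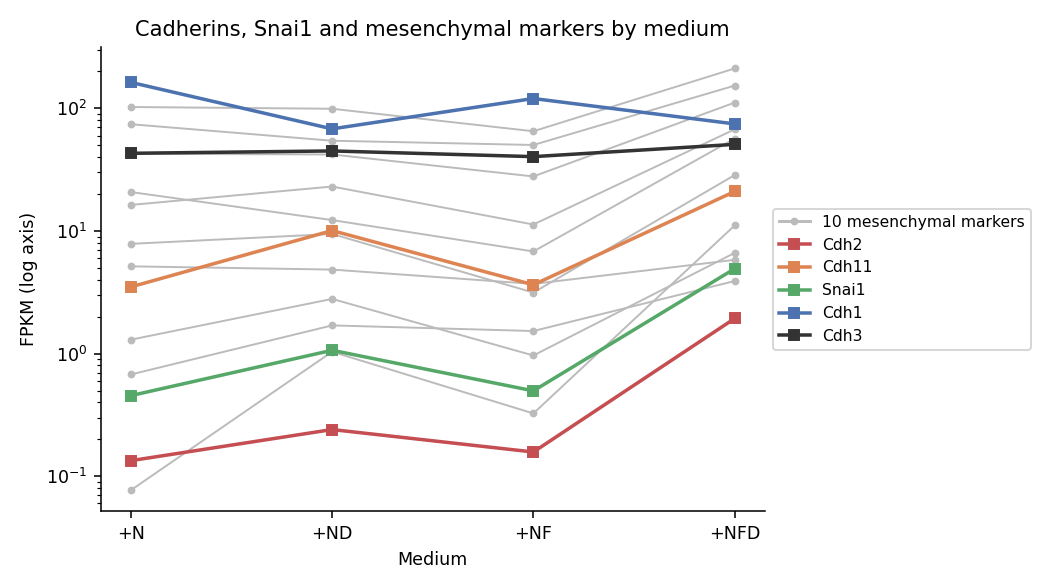
FPKM (log axis) of Cdh1, Cdh2, Cdh3, Cdh11 and Snai1 (coloured) and of 10 mesenchymal markers (grey) by medium, 1 point per library, with lines joining the points of a gene only to guide the eye. Cdh2, Cdh11, Snai1 and the 10 markers have their highest point in +NFD, where Cdh2 is at 1.93 and Snai1 at 4.92 FPKM, while Cdh1 has its highest in +N.

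The 3 catenins varied less than Cdh1. Ctnnb1 (ENSMUSG00000006932; GRCm38 chr9:120929216-120960507, plus strand), which encodes β-catenin, was at 336 FPKM in +N and 326 in +NF, and at 245 in +ND and 279 in +NFD. Ctnna1 (ENSMUSG00000037815; GRCm38 chr18:35118888-35254773, plus strand), which encodes αE-catenin, was at 182 and 187 FPKM without DBZ (+N and +NF) and at 123 and 152 with it (+ND and +NFD). In both genes the libraries without DBZ were above those with DBZ, and +ND was the lowest. Ctnnd1 (ENSMUSG00000034101; GRCm38 chr2:84600071-84650765, minus strand), which encodes p120-catenin, was at 75.2 FPKM in +N and 74.8 in +NF, and at 57.9 in +ND and 51.7 in +NFD. Its values in +N and +NF had overlapping counting intervals (74.0 to 76.5 and 73.6 to 76.1 FPKM).

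No catenin was called in any comparison. With DBZ and without Fgf10 (+ND against +N) the log2 ratio was -0.46 for Ctnnb1, -0.56 for Ctnna1 and -0.37 for Ctnnd1, and with Fgf10 (+NFD against +NF) it was -0.23, -0.31 and -0.53. All 3 catenins were therefore lower with DBZ on both backgrounds, by less than 2-fold. Fgf10 without DBZ gave log2 ratios of -0.04, 0.04 and -0.01, each of which changed sign under other scalings, and Fgf10 with DBZ gave 0.19, 0.29 and -0.16. The FPKM of Ctnna1 was 0.542 times that of Ctnnb1 in +N and 0.575 in +NF, and 0.504 in +ND and 0.543 in +NFD, and so these 2 genes kept nearly the same ratio. Relative to the summed FPKM of Cdh1, Cdh2 and Cdh3, Ctnnb1 was 1.63 times in +N and 2.03 in +NF, and 2.16 in +ND and 2.19 in +NFD. The ratio to these 3 cadherins was thus lowest in +N. Cdh11 and Cdh13, which were also lowest in +N, are left out of that sum, so it is not a ratio to all cadherin RNA.

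Genes that overlap the catenin genes were listed near 0. Gm28635, a readthrough gene on the strand of Ctnnd1, was at or below 9.95e-20 FPKM, and Lrrtm2, on the other strand within Ctnna1, was at or below 0.0133 FPKM. The annotation gives 30 transcripts for Ctnnd1, 15 for Ctnnb1 and 11 for Ctnna1, against 3 for Cdh1 and 1 for Cdh3, and the table holds 1 value per gene, so isoforms were not resolved.

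Jup encodes γ-catenin (plakoglobin), the close relative of β-catenin that serves in both adherens junctions and desmosomes. It was at 307 FPKM in +N and 208 in +NF, and at 184 in +ND and 182 in +NFD, and so was highest in +N. Its FPKM was 0.914 times that of Ctnnb1 in +N and 0.638 in +NF, and 0.753 in +ND and 0.652 in +NFD. The longest identical run between the Ctnnb1 and Jup transcripts was 20 bases.

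Of 28 other genes of the junction plaque and the nectins, 4 were at least 2-fold lower and 0 higher in +ND against +N, with a median log2 ratio of -0.37 over the 25 that passed the filter. Between 2.44% and 5.88% of all genes were called in a given direction of a comparison, so a count of 1 on this list is near the background. The 4 lower genes in +ND were Nectin2, Nectin3, Nectin4 and Plekha7. Nectins are adhesion proteins that join adherens junctions through afadin. Nectin4 was at 134 FPKM in +N and 71.9 in +NF, and at 38.5 in +ND and 44.8 in +NFD, Nectin2 had a log2 ratio of -1.25 in +ND against +N, and Nectin3 one of -1.68 in +NFD against +NF. Plekha7, which binds p120-catenin at the junction, was at 20.7 and 17.1 FPKM without DBZ (+N and +NF) and at 5.44 and 9.78 with it (+ND and +NFD). In +NF against +N 0 of the list were called. In +NFD against +N 3 were lower (Nectin3, Nectin4 and Plekha7) and 1 higher, and in +NFD against +NF 1 was lower (Nectin3). The gene that was higher, also in +NFD against +ND, was Ctnna2, the neural α-catenin, which was at or below 2.16 FPKM in every library. It was below an FPKM of 1 in +N and in +ND, so it passed the filter in both comparisons through +NFD alone. Vinculin (Vcl), afadin (Afdn) and the actinins Actn1 and Actn4 were not called in any comparison.

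Epcam (ENSMUSG00000045394; GRCm38 chr17:87635979-87651106, plus strand) encodes the epithelial adhesion glycoprotein of the same name, and of the 6 genes counted in +NF against +N it had the highest log2 ratio. It was at 122 FPKM in +N and 218 in +NF, and at 54.8 in +ND and 98.4 in +NFD. Each DBZ library was below its partner without DBZ, and each Fgf10 library was above its partner without Fgf10. The log2 ratio with DBZ was -1.15 without Fgf10 and -1.14 with it. The log2 ratio with Fgf10 was 0.83 without DBZ and 0.83 with it. By arithmetic the Fgf10 ratios differ by the same amount as the DBZ ratios, so their likeness is not a separate observation. In +NFD against +N, where both factors were added, it was -0.31. The FPKM of Epcam was 0.751 times that of Cdh1 in +N and 1.82 times in +NF.

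The bases just before the start of Epcam and, for comparison, of Ctnnb1 are shown. They are the 250 bases before the start site in RefSeq on GRCm38.p6, at chr17:87635729-87635978 for Epcam and chr9:120933150-120933399 for Ctnnb1, both on the plus strand and written 5′ to 3′. The RefSeq start of Ctnnb1 lies inside the gene span that GENCODE gives, after the most upstream annotated start, and of its 2 RefSeq windows, which overlap each other, the upstream one is shown. RefSeq windows were at hand for 3 of the 7 genes, Ctnnb1, Ctnnd1 and Epcam. Capitals mark matches, on either strand, to CAGGTG, the E-box letters bound by Snail and Zeb factors, and to ACCGGT, the core letters of Grainyhead-like factors. TGGGAA, the core letters of Rbpj, and CTTTGA, those of Tcf and Lef factors, were also searched. No match overlapped another, and the motifs were chosen with these windows in view.
Epcam: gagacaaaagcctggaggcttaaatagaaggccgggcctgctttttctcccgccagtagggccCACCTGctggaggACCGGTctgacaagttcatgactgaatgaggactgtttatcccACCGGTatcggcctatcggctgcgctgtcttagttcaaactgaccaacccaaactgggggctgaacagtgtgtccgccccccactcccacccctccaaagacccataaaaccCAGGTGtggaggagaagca
Ctnnb1: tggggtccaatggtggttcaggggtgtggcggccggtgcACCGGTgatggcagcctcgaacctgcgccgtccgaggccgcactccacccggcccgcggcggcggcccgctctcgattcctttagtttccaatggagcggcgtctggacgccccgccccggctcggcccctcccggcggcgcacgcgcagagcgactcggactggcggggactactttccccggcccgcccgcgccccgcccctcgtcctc
The Epcam window held 2 E-boxes, which begin 187 and 19 bases before the start, and 2 ACCGGT matches, which begin 174 and 131 bases before it. Over 32851 windows of the same length, 17.2% held at least 1 such E-box and 2.06% at least 2, and 1.86% held at least 1 ACCGGT and 0.0274% (9 windows) at least 2. The Ctnnb1 window held 1 ACCGGT, which begins 211 bases before the start, and no E-box of this kind. Neither window held TGGGAA or CTTTGA, which 21.6% and 13.8% of all windows held. A match to these letters is a description of the window and not a binding site. Since the motifs were chosen with these windows in view, the shares do not measure how unusual the Epcam window is.

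Snail, Zeb and Grainyhead-like factors and other regulators of cadherin genes were measured in the same libraries. Zeb1 was between 0.444 and 1.78 FPKM and Zeb2 between 0.732 and 1.73 FPKM, and neither was called in any comparison. Snai2, a repressor that binds E-boxes of Cdh1, was at 28.5 FPKM in +N and 32.1 in +NF, and at 64.7 in +ND and 33.8 in +NFD, so it was called in +ND against +N (log2 ratio 1.15) and not in +NFD against +NF (0.07), and the difference between these ratios was not tested. Snai1, its relative, was at 0.454 and 0.497 FPKM without DBZ (+N and +NF) and at 1.06 and 4.92 with it (+ND and +NFD), and Twist2, a mesenchymal factor, was at 0.744 and 0.679 FPKM without DBZ and at 2.79 and 6.17 with it. Both were highest in +NFD, as the mesenchymal markers were, whose part in these values was not tested. Grhl2, an activator of Cdh1 in epithelia, was at 23.6 and 26.7 FPKM without DBZ (+N and +NF) and at 18.4 and 24.7 with it (+ND and +NFD) and was not called.

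Of 19 regulators in the table, 1 was at least 2-fold lower (Ehf) and 4 higher (Snai2, Twist2, Ovol1 and Klf4) in +ND against +N. In +NFD against +NF 0 were lower and 4 higher (Snai1, Twist2, Ovol1 and Klf4), and in +NF against +N 2 were lower (Grhl1 and Ehf) and 0 higher. In +NFD against +N 1 was lower (Ehf) and 3 higher (Snai1, Twist1 and Twist2), and in +NFD against +ND 0 were lower and 2 higher (Snai1 and Twist1). Snai1, Twist1 and Twist2 were below an FPKM of 1 in +N, so against +N they passed the filter through +NFD alone. The same held for Snai1 and Twist2 against +NF and for Twist1 against +ND. Twist2 passed in +ND against +N through +ND alone. These calls are given as a description only. The share of all genes called in a given direction was between 2.44% and 5.88%, so a count of 1 regulator is near the background. Ehf, an Ets factor of epithelia, was at 134 FPKM in +N and 60.8 in +NF, and at 63.3 in +ND and 38.3 in +NFD. Ovol1 and Klf4, regulators of epidermal differentiation, were higher with DBZ on both backgrounds, with log2 ratios of 1.51 and 1.50 for Ovol1 and of 1.27 and 1.27 for Klf4. Esrp1, a splicing regulator of epithelial cells, stayed between 75.3 and 81.1 FPKM.

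The claudin partner of Epcam had another order of levels. Cldn7, which binds Epcam in the membrane, was at 53.2 and 31.6 FPKM without DBZ (+N and +NF) and at 12.9 and 12.1 with it (+ND and +NFD). It was lower in +NF than in +N, where Epcam was higher.

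With DBZ it was lower on either background, as Epcam was. Of the 11 genes on the list of Epcam partners and proteases, 5 were at least 2-fold lower and 0 higher in +ND against +N, with a median log2 ratio of -0.91 over the 10 that passed the filter. There 5.29% of all genes were lower and 5.88% higher. Among the 5 were Cldn7, the protease inhibitors Spint1 and Spint2, and the membrane protease St14, with log2 ratios of -1.96, -1.60, -1.02 and -1.14. The last 2 were near the threshold, and with values rescaled to a sum of 1000000 in each library 3 of the list were called in place of 5. In +NFD against +NF 1 was lower, Cldn7 with -1.32. In +NFD against +N 3 were lower, among them Cldn7 and Spint1, and in +NF against +N and +NFD against +ND 0 were called. Of 10 epithelial markers, which include Cldn7, 6 were at least 2-fold lower in +ND against +N and 4 in +NFD against +NF, where 5.29% and 2.69% of all genes were. The part of these markers in the Epcam and Cdh1 values was not tested.

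The calls were read beside the share of all genes called. In +ND against +N, 2 of the 6 members that passed the filter, Cdh1 and Epcam, were at least 2-fold lower and 0 higher, where 5.29% of 13173 genes were lower and 5.88% higher. In +NFD against +NF, 1 of 7, Epcam, was lower and 1, Cdh2, higher, against 2.69% and 3.72% of 13349 genes. Cdh2 passed the filter through +NFD alone, the library where it was high, so its calls are given as a description only. Its value also enters the medians of the comparisons with +NFD. Epcam was thus lower by at least 2-fold with DBZ on both backgrounds, as were 2.13% of the 12774 genes that passed the filter in both. The median log2 ratio of the members was -0.51 in +ND against +N, with a median of 0.10 over all genes, and -0.31 in +NFD against +NF, with 0.05 over all genes.

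In the Fgf10 comparisons the counts of members called were 0 or 1. Such counts, and those of 1 in +NFD against +NF, are near the share of all genes. Epcam was not called, but its log2 ratio was 0.83 in both Fgf10 comparisons. As high or higher were 4.83% of genes in +NF against +N and 5.44% in +NFD against +ND. In +NF against +N, 0 of 6 members were called in either direction, where 2.44% of 13090 genes were at least 2-fold lower and 2.76% higher. In +NFD against +ND, 0 of 7 were lower and 1, Cdh2, higher, against 3.11% and 3.39% of 13293 genes. The calls of Cdh2 here and in +NFD against +N rest on +NFD, the only library in which it passed the filter. The median of the members was -0.03 in +NF against +N (0.12 over all genes) and 0.19 in +NFD against +ND (0.09 over all genes). In +NFD against +N, with both factors, 1 of 7 members, Cdh1, was lower and 1, Cdh2, higher, against 4.03% and 5.85% of 13358 genes, and the median was -0.27 with 0.18 over all genes. The calls of Cdh1 in +NFD and of Epcam in +ND against +N were near the threshold, and with values rescaled to a sum of 1000000 in each library they came to -0.98 and -0.99.

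**Figure D4:**
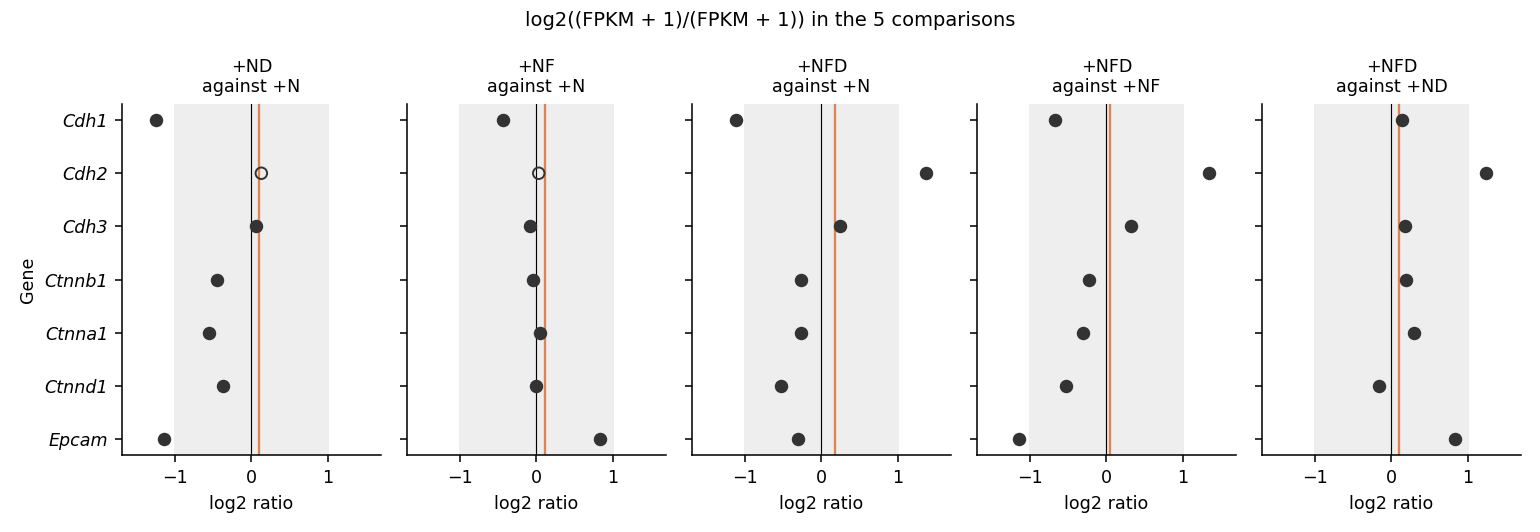
log2((FPKM + 1)/(FPKM + 1)) of the 7 genes in each of the 5 comparisons, 1 point per gene, with the range within 2-fold shaded, the median of all genes as an orange line and open points where Cdh2 did not pass the filter. Cdh1 and Epcam lie left of the shading in +ND against +N at -1.25 and -1.15, and Cdh2 lies right of it in each comparison of +NFD.

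The 4 libraries form a 2 by 2 layout, in which the difference with DBZ can be set out without and with Fgf10 from separate pairs of libraries. The second minus the first was 0.0032 for Epcam, -0.15 for Ctnnd1, 0.23 for Ctnnb1, 0.25 for Ctnna1, 0.26 for Cdh3, 0.57 for Cdh1 and 1.21 for Cdh2, all on the log2 scale. Over 13748 genes at an FPKM of 1 or more in any library, the median of its size was 0.34. The value of Epcam was close to 0 with the values as deposited and depended on the scaling, from -0.12 with values rescaled to a sum of 1000000 to 0.073 with upper-quartile scaling. That of Cdh1 stayed between 0.44 and 0.64 under the alternatives, and 27.3% of genes were at least as far from 0 with the values as deposited. Cdh2 was among these genes through +NFD alone, the library where it was high, so its distance from 0 is given as a description only.

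**Figure D5:**
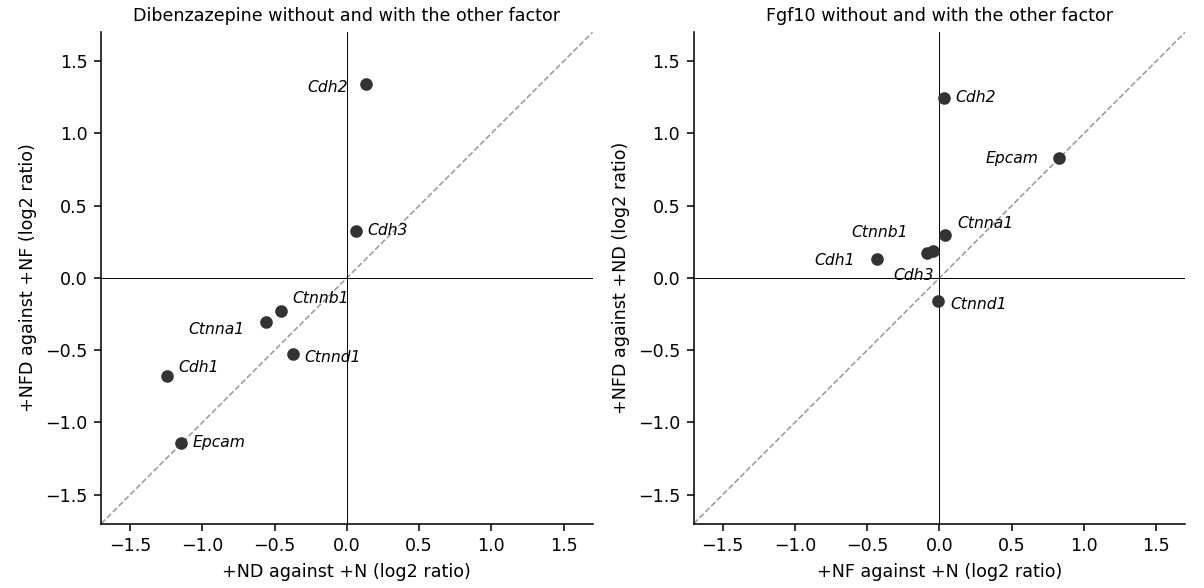
log2 ratio of each gene with DBZ (left) and with Fgf10 (right), without the other factor on the horizontal axis and with it on the vertical axis, 1 point per gene, with a dashed line where both are equal. Epcam lies on the line in both panels with the values as deposited (up to 0.12 off it under other scalings), Cdh1 lies above it with -1.25 and -0.68 on the left, and Cdh2 lies highest in both. The vertical distance of a gene from the line is the same in both panels by arithmetic.

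Genes that act on these proteins were described from 2 further lists. Of 19 genes of cadherin shedding, phosphorylation and turnover, 0 were called in +ND against +N, in +NF against +N and in +NFD against +NF, and 1 was higher in +NFD against +N (Fyn, a Src family kinase) and in +NFD against +ND (Ptpru). Over all genes, between 2.44% and 5.88% were called in one direction, so such counts are near the background. They also moved with the processing, to 2 in +ND against +N with values rescaled to a sum of 1000000, and to between 0 and 2 in +NFD against +N. The sheddase Adam10 was at 51.5 FPKM in +N and 36.9 in +NF, and at 49.8 in +ND and 37.1 in +NFD. Ptpru, a receptor phosphatase, had a log2 ratio of 1.31 in +NFD against +ND. Of 19 genes of the β-catenin destruction complex and its nuclear partners, 0 were called in +ND against +N and in +NFD against +NF, and 1 was higher and 0 lower in each of the other 3 comparisons (Tcf7 against +N in +NF and +NFD, Ctnnbip1 in +NFD against +ND). Tcf7, a nuclear partner of β-catenin, was at 3.89 FPKM in +N and 17.3 in +NF, and at 6.66 in +ND and 14.1 in +NFD, and Ctnnbip1, an inhibitor of that partnership, had a log2 ratio of 1.04 in +NFD against +ND, a call that was lost with centred ratios and with upper-quartile scaling. Axin2, a known Wnt target, was between 11.6 and 13.9 FPKM in the 4 media, all of which held Wnt3a.

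Other genes with the profile closest to each member were found over the 4 libraries, among 10467 genes that reached an FPKM of 5, as the smallest root mean square difference between log2(FPKM + 1) profiles centred on their own means. For Cdh1 they were H2-Q2 (0.025), of a multigene family whose members may share reads, Cstb (0.034) and Asah2 (0.049), and for Epcam they were Gpc6 (0.055), Gm29397 (0.12) and Fzd4 (0.12). For Cdh2 they were Tgfb1i1 (0.091), Prrx2 (0.095) and Grem1 (0.11). That all 3 had their highest level in +NFD follows from the choice by profile. The pseudocount also makes the rise of the low gene Cdh2 smaller on this scale. For Cdh3 they were Rab3a, Wdr53 and Eif3g, for Ctnnb1 Amotl2, Herc3 and Nfkb1, for Ctnna1 Smim20, Scarb2 and Hist1h4i, and for Ctnnd1 Zc3hav1, A130010J15Rik and Ddx24, at differences of 0.010 to 0.031. The members with the widest range, Cdh2 and Epcam, had the most distant neighbours. No member was among the 3 nearest genes of another.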

How the data were processed

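RNA-seq values of 4 libraries, 1 per medium, were analysed. The deposited values are FPKM, which the authors estimated with Cufflinks. Before that, TruSeq libraries of total RNA were sequenced on an Illumina HiSeq instrument, reads were trimmed (Trim Galore 0.6.5) after a quality check (FastQC 0.11.9), and TopHat 2.1.1 placed them on GRCm38. Annotation release, strand setting and read totals are not given in the sources used here. The table held 47493 entries for 47360 symbols, and entries of 1 symbol were summed. It held 0 sample columns that could not be assigned.

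The 7 genes, the 8 gene lists and 5 marker lists were chosen with earlier results of these data known. Of 144 list genes, 142 were in the table, 5 of them by identifier, and Cdh15 and Snai3 were not analysed here. Ratios used a pseudocount of 1 and a filter at an FPKM of 1 in the higher library, and a gene past 2-fold was called. With 1 library per medium no test was made. Named were the 7 members, Jup, Snai2 and Cldn7, up to 5 genes per list that were called at an FPKM of at least 5, and the 3 nearest profiles per member. Other genes are named as examples chosen after their values were seen, and some genes that the rule names are not reported here.

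What 1 fragment is worth was read from 8367 genes with a single transcript of at least 1000 nt in GENCODE M21. Fragments per gene were estimated with the longest transcript, and their exact Poisson 95% intervals cover counting error only. Sequences were taken from RefSeq and GENCODE. The scripts were checked on simulated data. Alternatives were other pseudocounts, filters and scalings and the highest entry per symbol. The software was Python 3.11.15 (scipy 1.17.1, matplotlib 3.10.9, pandas 2.3.3, numpy 2.4.6).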

Additional observations from a re-analysis of the deposited data

Results flagged for a closer look

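In 3 genes the difference with Fgf10 had opposite signs without and with DBZ. For Cdh1 the log2 ratio was -0.43 in +NF against +N and 0.13 in +NFD against +ND, a difference of 0.57. For Cdh3 it was -0.09 and 0.17, a difference of 0.26, and for Ctnnb1 it was -0.04 and 0.19, a difference of 0.23. Of all genes at an FPKM of 1 or more in any library, 27.3% were at least as far from 0 as Cdh1. For Cdh3 and Ctnnb1 these shares were 60.0% and 64.5%, and both differences were below the median size over these genes, 0.34. By arithmetic these differences are the same numbers as those given above between the DBZ ratios with and without Fgf10. Each medium had 1 library, and these differences were not tested. None of the 6 ratios reached 2-fold. The ratios without DBZ of Cdh3 and Ctnnb1 were at most 0.021 and 0.068 under the alternative scalings, so their sign depends on the scaling, while that of Cdh1 stayed between -0.56 and -0.32.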

How the results depend on the processing

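The Cdh1 to Cdh3 ratios are taken within a library and cannot change with the scaling, filter or pseudocount, so the alternatives do not bear on them. No called member changed sign under the 9 alternatives. Of 33 member ratios, 5 changed sign under some alternative, all of them of small size in +ND or +NF against +N: Cdh3 in both, and Ctnnb1, Ctnna1 and Ctnnd1 in +NF. With values rescaled to a sum of 1000000, 1 member was called in place of 2 in +ND against +N (Epcam at -0.99) and 1 in place of 2 in +NFD against +N (Cdh1 at -0.98). The same rescaling over transcripts of at least 300 nt, an alternative chosen after seeing the data, also called 1 in +NFD against +N. A filter at an FPKM of 5 removed Cdh2, so 1 was called in +NFD against +N, 1 in +NFD against +NF, where the median became -0.42, and 0 in +NFD against +ND. With upper-quartile scaling, centred ratios and the 2 rescalings, the median was -0.62, -0.61, -0.35 and -0.36 in +ND against +N, -0.15, -0.14, 0.085 and 0.076 in +NF against +N, and -0.44, -0.45, -0.13 and -0.14 in +NFD against +N. Centred ratios gave 0.094 in +NFD against +ND. Of 360 list counts under the alternatives, 43 moved by over 1.5 times, and of 62 values of the difference of the DBZ ratios, 16 moved beyond counting error, Epcam to -0.12 with the sum of 1000000. The most abundant entry, BC037156, was at 116578 FPKM in +N and 34772 in +ND, and its part in the scaling was not tested. No paired analysis was possible because each medium had 1 library.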
